A study of Mus musculus with 24 samples.

Results

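Nuclear RNA of Mettl14 KO mouse embryonic stem (ES) cells was compared with that of their parental line, WT26, over every autosomal gene that passed a filter on low counts. These were 16317 genes, of 43008 autosomal genes in the deposited count table and of 17021 genes of any chromosome that passed. Each group held 2 biological replicates, so 4 RNA-seq libraries entered the comparison, of the 8 RNA-seq libraries in the series. The other libraries were of Mettl3 KO cells and of RBC, the wild-type line set against them. All lines were ES cells of 129/Sv x C57Bl6 background grown on gelatin with serum replacement and LIF, a cytokine that keeps ES cells undifferentiated. The Mettl14 KO is 1 CRISPR/Cas9 clone, so what belongs to the loss of Mettl14 and what belongs to this clone cannot be told apart. The RNA was nuclear and was sequenced as total RNA after removal of rRNA, so unspliced and non-polyadenylated transcripts were counted too.

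Mettl14 is the RNA-binding partner of Mettl3, the catalytic subunit of the nuclear complex that methylates adenosine in mRNA to N6-methyladenosine (m6A). Reader proteins of the YTH family bind the mark, which is best known for shortening the life of transcripts. In ES cells, transcripts of pluripotency factors carry m6A, and cells without the complex are known to leave the pluripotent state slowly.

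The library totals were 13516561 and 11321459 counts in WT26 and 12468973 and 12628161 in Mettl14 KO. The 10 most abundant genes took 16.6% and 16.1% of counts in WT26 and 24.0% and 22.8% in Mettl14 KO. Values below are normalized counts, that is counts divided by a size factor for each library, and log2 fold changes of Mettl14 KO against WT26 with their SE from edgeR. Passing the test means an adjusted p of 0.05 or less, and a called gene also changed by more than 1 on the log2 scale. RNA from fewer cells of a type and less RNA per cell cannot be told apart in these bulk libraries.

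Mettl14 and Mettl3 were examined first. Guide RNAs against both genes were given to the cells, and the paper reports that the clone is mutant in Mettl14 and has an intact catalytic domain of Mettl3. Mettl14 measured 401 and 358 normalized counts in WT26 and 297 and 316 in Mettl14 KO (log2 fold change -0.31 ± 0.09 SE, adjusted p = 0.00609). A short deletion that shifts the reading frame need not remove the RNA, so its level does not check the genotype. Mettl14 lies on chromosome 3, and with size factors set within each chromosome the change was -0.07 (adjusted p = 0.558). It did not pass the test without Mettl14 KO replicate 1 (adjusted p = 0.0636) or without WT26 replicate 1 (adjusted p = 0.0923). Mettl3 measured 714 and 720 in WT26 and 1021 and 886 in Mettl14 KO (0.41 ± 0.07, adjusted p = 0.000112), with exons that overlap those of Tox4 on the other strand. Among the 25 m6A writers, readers and erasers 0 were called by edgeR (0 also by DESeq2 or at an unadjusted p), 8 rose and 13 fell by the test. These are 32% and 52%, against 25.0% higher and 27.3% lower over all tested autosomal genes. The scaffold Virma (-0.41 ± 0.06) and the readers Ythdf2 (-0.53 ± 0.07) and Ythdf3 (-0.42 ± 0.05) fell, and the demethylase Fto rose (0.31 ± 0.07). The lowest and highest values of this list were Trmt112 (-0.94 ± 0.15) and Zcchc4 (0.44 ± 0.06).

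Of the autosomal genes, 1218 were called higher in Mettl14 KO (7.46% of those tested) and 1080 were called lower (6.62%). By adjusted p alone, 4074 were higher (25.0%) and 4451 were lower (27.3%). The median over all tested genes was -0.01, so fold changes are read against a centre near 0. To see which functions these genes belong to, 84 lists of families and pathways were counted, and they held 3286 tested genes with 260 called higher and 228 called lower. The other 1810 called genes were in no list. The counts of each list are to be read against the shares over all autosomal genes given here.

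**Figure D1:**
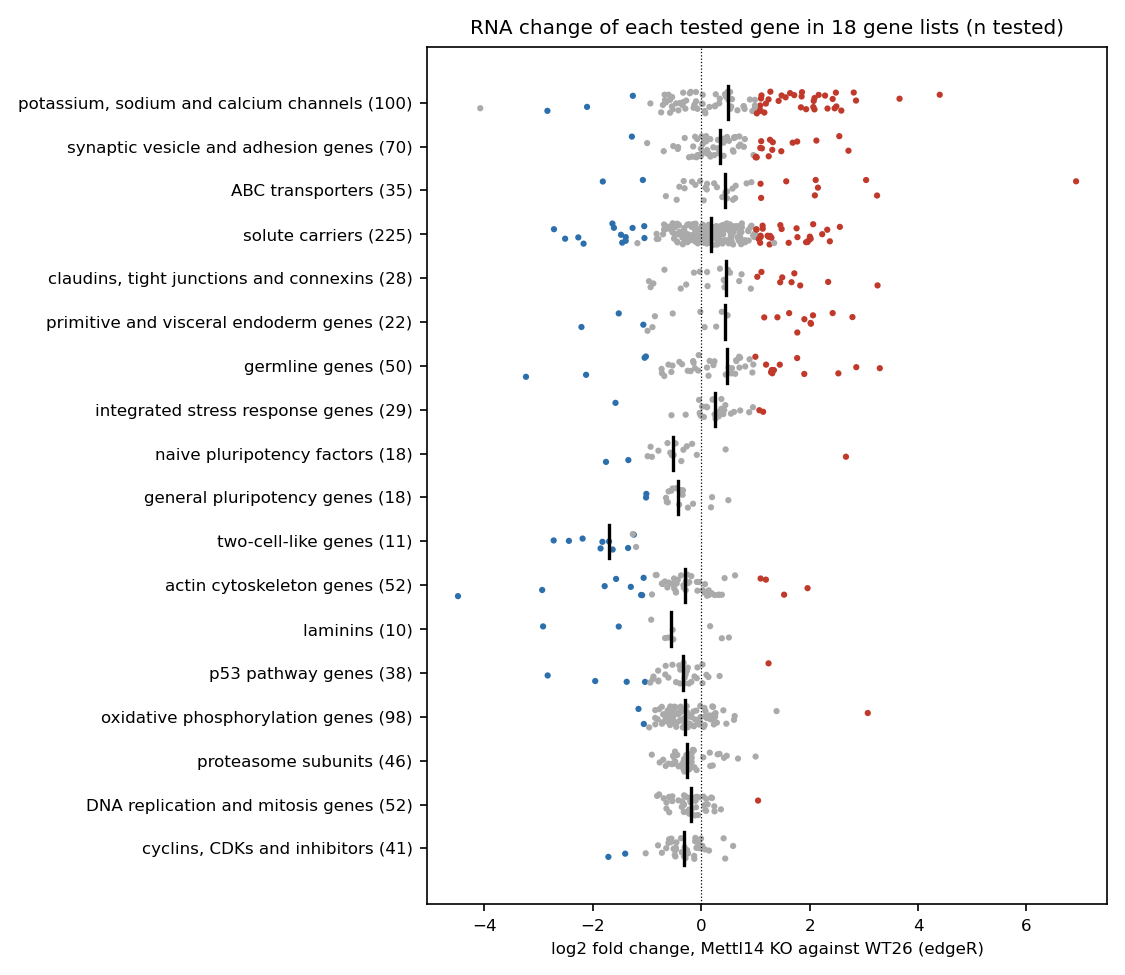
Each point is 1 tested autosomal gene, placed by its log2 fold change (Mettl14 KO against WT26) in 18 of the lists; red points were called higher, blue points lower, grey points were not called, and black bars are medians. Channel genes lie mostly to the right with a median of 0.50, and two-cell-like genes all lie to the left with a median of -1.70.

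Genes of membrane excitability and transport rose in number. Of 100 tested potassium, sodium and calcium channel genes, 35 were called higher and 3 lower, against the 7.46% and 6.62% of all genes, and their median was 0.50. Kcnk1, a two-pore potassium channel, measured 38.0 and 37.6 normalized counts in WT26 and 260.4 and 273 in Mettl14 KO (2.81 ± 0.15, adjusted p = 7.24e-11). Itpr2, which releases calcium from the endoplasmic reticulum, measured 30.7 and 37.6 in WT26 and 248 and 245 in Mettl14 KO (2.86 ± 0.18, adjusted p = 5.21e-10). For both genes both knockout libraries lay above both WT26 libraries. Called members of a list were named only where the groups did not overlap, so this separation is no added evidence. Kcnma1, the large-conductance calcium-activated potassium channel, went from 16.3 and 15.0 to 83.1 and 86.7 (2.43 ± 0.23), and the cation channel Trpc1 from 43.4 and 34.4 to 113 and 132 (1.64 ± 0.19). The channel genes called lower, Trpc6, Kcnk4 and Scn9a, were named after their values were seen, and all had low counts, at most 30.1 in any of these libraries. Counts of the list were low in general, with a median of 32.0. Genes in the lowest quintile by abundance were called higher in 16.5% of cases and lower in 12.5%. With at least 10 counts required in every library, 15 channel genes were called higher and the median was 0.26.

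The 70 tested genes of synaptic vesicles and synaptic adhesion had a median of 0.35, with 16 called higher and 1 lower. Syt7, a calcium sensor of exocytosis, rose from 30.7 and 22.5 to 118 and 118 (2.13 ± 0.21, adjusted p = 2e-07). Rims1, a scaffold of the presynaptic release site, rose from 77.8 and 88.0 to 285 and 247 (1.69 ± 0.13), and Stxbp5, which binds syntaxin, from 229.7 and 234 to 595 and 556 (1.31 ± 0.08). Every library of Mettl14 KO lay above both of WT26 for these genes, as the rule for naming them required. In contrast, the 35 neurotransmitter receptor genes had 4 called higher and 6 lower and a median of 0.10, and Adrb3, a beta-adrenergic receptor, fell from 703 and 694 to 319 and 308 (-1.16 ± 0.08). Neural markers did not move together. Pax6, a factor of neural progenitors, rose from 20.8 and 23.6 to 91.1 and 81.8 (1.96 ± 0.22), and Tubb3, the neuronal tubulin, fell from 444 and 414 to 194 and 210.4 (-1.09, adjusted p = 1.82e-08). Sox1 gave -0.07 (adjusted p = 0.71), and the neurogenic factor Neurog2 measured at most 1 count in any of the 4 libraries.

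Of 35 ABC transporter genes, 9 were called higher and 2 lower, with a median of 0.45. Abca3, a lipid transporter, rose from 497 and 466 to 1390.1 and 1472 (1.57 ± 0.07, adjusted p = 6.06e-12). Abcc2, an exporter of organic anions, rose from 16.3 and 26.8 to 157 and 193 (3.04 ± 0.25), and Abca13 from 35.3 and 48.3 to 204 and 165 (2.15 ± 0.17). The drug exporter Abcb1a fell from 653 and 715 to 313 and 334 (-1.08 ± 0.10). Among 225 solute carriers, 28 were called higher and 13 lower, with a median of 0.18. Slc5a4b rose from 43.4 and 37.6 to 216 and 207 (2.37 ± 0.16), and Slc16a10, a carrier of aromatic amino acids, from 27.1 and 25.8 to 133 and 117 (2.23 ± 0.19). The citrate carrier Slc13a5 fell from 246 and 255 to 46.1 and 57.5 (-2.27 ± 0.14). Of the solute carriers 12.4% were called higher and 5.78% lower, against 7.46% and 6.62% of all genes. Only the share called higher thus exceeded that of all genes.

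Channel, synaptic and ABC transporter genes are long, with median genomic lengths of 57.8, 61.1 and 60.3 kb against 18.05 kb over all tested genes. Among protein-coding genes in quintiles of genomic length, the share called higher went from 5.62% in the shortest quintile to 12.6% in the longest, and the median from -0.13 to 0.13. The share called lower was 7.45% in the shortest quintile and 6.23% in the longest. In the longest quintile without the channel and synaptic lists, 11.9% of 2546 genes were called higher. Of 41 channel genes in that quintile 19 were called higher, and of 58 in the other quintiles 16 were, which is 46.3% and 27.6%. Length and abundance thus moved with the calls of these lists, and their part in the result was not tested.

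**Figure D2:**
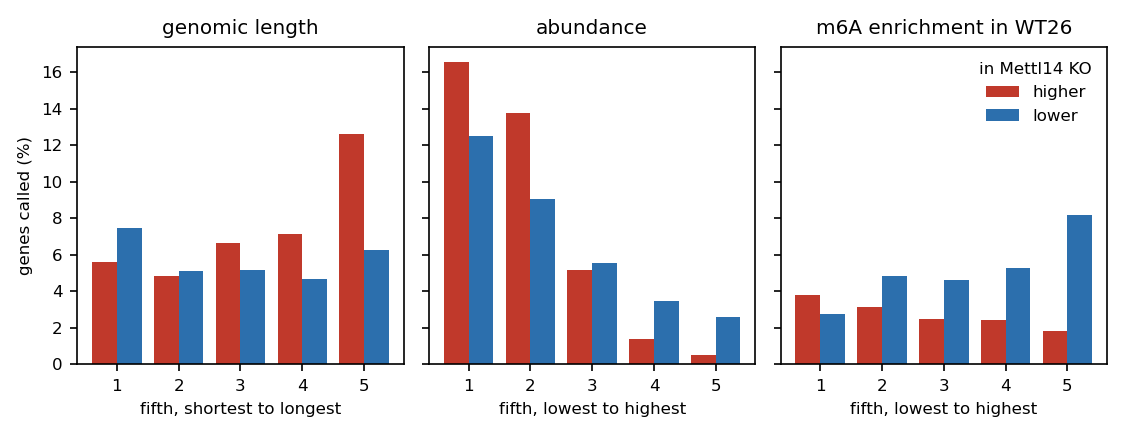
Bars give the percentage of genes called higher (red) or lower (blue) in Mettl14 KO in quintiles of protein-coding genes by genomic length, of all tested autosomal genes by mean normalized counts, and of genes by m6A enrichment in WT26. Calls in the higher direction reached 12.6% in the longest quintile and 16.5% in the least abundant quintile, and calls in the lower direction reached 8.18% in the quintile with the highest m6A enrichment.

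Genes of tight junctions, cadherins and the actin cytoskeleton each moved in both directions, in unequal numbers. Of 28 genes of claudins, tight junctions and connexins, 9 were called higher and 0 lower by edgeR (0 lower also by DESeq2 or at an unadjusted p, and 2 lower without Mettl14 KO replicate 2), with 6 lower by adjusted p alone and a median of 0.46. With at least 10 counts in every library 4 were called higher and the median was 0.23, and 6 were called higher without WT26 replicate 2. Of 27 classical and atypical cadherins, 4 were called higher and 6 lower, with a median of -0.14. Cgn, which encodes the tight junction protein cingulin, rose from 47.9 and 78.4 to 290 and 340.0 (2.34 ± 0.15, adjusted p = 6.22e-10). Ocln, the gene of the junction protein occludin, rose from 140.2 and 139.6 to 389.6 and 399 (1.5 ± 0.12), and Marveld2, of the related tricellulin, from 48.8 and 40.8 to 131 and 117 (1.46 ± 0.19). For each of them the libraries of the lines did not overlap, which was a condition for naming them. Of 52 genes in the actin cytoskeleton list, 30 fell and 11 rose by adjusted p, with 8 called lower and 4 higher. The list is wider than its name, since it also counts the lamin gene Lmna. Off chromosomes 3 and 4, 4 were called lower, and with size factors within each chromosome 5 lower and 3 higher. Vim, the gene of the intermediate filament vimentin, fell from 2230.0 and 2412 to 984 and 903 (-1.30 ± 0.06, adjusted p = 7.51e-12). Lmna, of the nuclear lamins A and C, fell from 471 and 487 to 149 and 129.6 (-1.78 ± 0.10). Tln1, of talin, which couples integrins to actin, fell from 3271 and 3447 to 1553 and 1561 (-1.11 ± 0.05), but it lies on chromosome 4, and with size factors within each chromosome its value was -0.79. Actg1, the gene of cytoplasmic gamma-actin, went the other way, from 1724 and 1720.0 to 3857 and 3507 (1.10 ± 0.05), and so did Rhob, from 140.2 and 154 to 419.6 and 427 (1.53 ± 0.10), and the muscle-type alpha-actinin Actn2, from 71.4 and 66.6 to 245 and 294 (1.96 ± 0.14). With size factors within each chromosome Actg1, on chromosome 11, gave 0.93.

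Laminins, the network-forming proteins of basement membranes, fell in 7 of 10 genes by adjusted p and rose in 1, with a median of -0.57. Lama1, among the 3 most abundant genes called lower, measured 11274 and 11271 in WT26 and 3894 and 3960.1 in Mettl14 KO (-1.52 ± 0.05, adjusted p = 1.78e-13). Lama4 fell from 174.5 and 186 to 23.0 and 24.4 (-2.92 ± 0.21), and Lamc1 from 11488 and 12027 to 7924 and 8408 (-0.53 ± 0.05). Lamb1 rose (0.38 ± 0.06). The integrin Itga3, a laminin receptor subunit, fell from 1772 and 1896 to 615 and 635 (-1.55 ± 0.06), and the basement membrane collagen Col4a2 from 1583 and 1636 to 740.1 and 795 (-1.07 ± 0.06). Of 15 tested annexin and S100 genes 5 were called lower and 1 higher, and Anxa5 fell from 266 and 239 to 61.1 and 72.1 (-1.92 ± 0.15). But 7 of these genes lie on chromosomes 3 or 4, Anxa5 among them, and off these chromosomes 2 were called lower. With size factors within each chromosome 4 were called lower and 1 higher. Collagens as a family showed no common direction, with 4 called higher, 6 lower and a median of 0.01.

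Pluripotency genes fell by less than 1 on the log2 scale in most cases. Of 18 naive pluripotency factors 14 fell and 2 rose by adjusted p, against 27.3% lower and 25.0% higher over all genes, and of 18 general pluripotency genes 15 fell and 3 rose. Nanog, a core factor of naive pluripotency, measured 1876 and 1997 in WT26 and 1076 and 1164 in Mettl14 KO (-0.79, adjusted p = 9.98e-10). Pou5f1 measured 3395 and 3460.3 in WT26 and 2267 and 2254 in Mettl14 KO (-0.60), and Sox2 1951 and 2056 in WT26 and 1400.1 and 1336 in Mettl14 KO (-0.55). These factors stayed abundant in both lines, with a summed level of the 10 ES cell markers of 36406 and 37317 in WT26 and 26295 and 26416 in Mettl14 KO. Klf4 lies on chromosome 4, and its value of -0.37 became -0.05 (adjusted p = 0.516) with size factors within each chromosome. Gbx2 fell most among the naive factors, from 409 and 413 to 133 and 110.1 (-1.76 ± 0.12), followed by Tdh, a threonine dehydrogenase that ES cells depend on, from 4676 and 4870.0 to 1878 and 1882 (-1.34 ± 0.05). Lin28a (-1.02 ± 0.07) and L1td1 (-1.01 ± 0.05), both on chromosome 4, were the general pluripotency genes called lower, and with size factors within each chromosome they gave -0.70 and -0.69. Lin28a gave -0.94 without Mettl14 KO replicate 2, and L1td1 -0.97 without WT26 replicate 1. Dppa3, a naive and germ cell gene named after its values were seen, was the naive gene called higher, from 2.7 and 2.1 to 14 and 18.5 (2.67 ± 0.54). Such abundant genes fell often as a class, since 44.4% of the most abundant quintile of genes were lower and 24.1% higher by adjusted p.

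**Figure D3:**
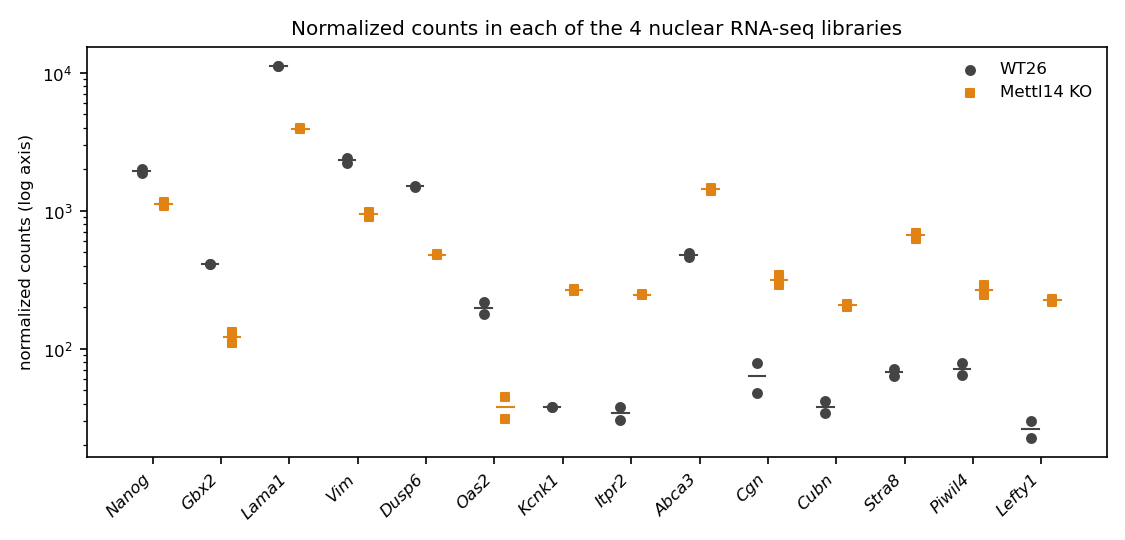
Normalized counts (log axis) of 14 named genes in each library, with circles for the 2 WT26 libraries, squares for the 2 Mettl14 KO libraries and short lines for group means. The libraries of the lines do not overlap for any of these genes, which was a condition for naming called members of a list. Stra8 went from 63.3 and 71.9 in WT26 to 695 and 629 in Mettl14 KO.

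Genes of the ES cell substate that resembles the two-cell embryo were lower. All 11 tested genes of that list had values below 0, 9 were called lower, and the median was -1.70. Their median abundance was 16.8 normalized counts, 1 gene remained to be tested with at least 10 counts in every library, which was called lower, and in the MeRIP input 2 passed as lower. Pramel6 fell from 170.0 and 158 to 47.1 and 58.5 (-1.63 ± 0.17, adjusted p = 3.27e-07). The Zscan4 genes, the usual markers of this substate and named after their values were seen, had lower counts, for example Zscan4d with 52.5 and 41.9 in WT26 and 15.0 and 11.7 in Mettl14 KO (-1.82 ± 0.30). Zscan4 and Pramel genes are near-identical copies, so reads may be split between them. In Mettl3 KO against RBC the median of the list was -1.49.

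Markers of the formative epiblast moved both ways. Foxd3, a factor of early epiblast and neural crest, fell from 284 and 337 to 59.1 and 42.9 (-2.60 ± 0.17). Pou3f1 fell from 34.4 and 41.9 to 5.0 and 3.9 (-3.06), and Dnmt3b changed from 1073 and 1128 to 830.3 and 932 (-0.32, adjusted p = 0.000505). Foxd3 and Pou3f1 lie on chromosome 4. Off chromosomes 3 and 4, 0 genes of the formative and primed list were called lower, and with size factors within each chromosome 2 were. Otx2 (0.65, adjusted p = 0.0129) and Zic2 (0.61, adjusted p = 0.00443) rose, but these rest on single libraries. Otx2 gave 0.28 without Mettl14 KO replicate 2 and 0.58 without WT26 replicate 2, and Zic2 gave 0.40 without Mettl14 KO replicate 1, none of which passed the test. Fgf5 measured at most 6.4. Of the 5 primitive streak markers, T, Mixl1, Mesp1 and Evx1 measured at most 10.7 in each library, and Eomes 32.6 and 33.3 in WT26 and 45.1 and 45.8 in Mettl14 KO (0.46, adjusted p = 0.107).

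Genes of primitive and visceral endoderm, the first extraembryonic endoderm of the embryo, were called higher in 10 of 22 cases and lower in 3. Pdgfra, a receptor that marks primitive endoderm, rose from 50.6 and 44.0 to 150.2 and 143 (1.62 ± 0.17, adjusted p = 2.99e-07), and Cubn, an uptake receptor of visceral endoderm, from 41.6 and 34.4 to 202 and 209.5 (2.43 ± 0.17). The transcription factors Gata6 (17.2 and 16.1 to 44.1 and 44.8), Gata4 (7.2 and 9.7 to 31.0 and 32.1) and Sox7 (5.4 and 5.4 to 15.0 and 22.4) rose from low levels. The adaptor Dab2 rose from 16.3 and 17.2 to 77.1 and 63.3 (2.06). Summed over the 7 endoderm markers, the level was 107 and 99.9 in WT26 and 323 and 309.6 in Mettl14 KO. Sox17 and Foxa2, which also define endoderm, measured at most 7.5 and 3.6 in any library. The genes called lower were Fst, Lama1 and Col4a2, and Fst, the activin antagonist follistatin, fell from 145 and 154 to 35.1 and 29.2 (-2.21 ± 0.18). Without genes under 10 counts in any library, 5 genes of the list were called higher and its median was -0.02. Of the 6 trophoblast markers, Cdx2, Elf5, Gata3, Hand1 and Krt7 measured at most 7.0, and Tfap2c rose from 212 and 226 to 287 and 281 (0.38, adjusted p = 0.00214). The 8 fibroblast markers summed to 121 and 121 in WT26 and 72.0 and 54.5 in Mettl14 KO. Of these, Col3a1 and Dcn were listed at 0 in all 4 libraries, Thy1 fell from 75.1 and 79.4 to 18 and 19.5 (-2.03, adjusted p = 2.74e-06), and Pdgfrb measured 27.3 to 39.8.

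Germline genes rose more often than they fell. Of 50 tested, 25 were higher and 13 lower by adjusted p, with 12 called higher and 4 lower and a median of 0.48. Stra8, which starts meiosis in answer to retinoic acid, measured 63.3 and 71.9 in WT26 and 695 and 629 in Mettl14 KO (3.30 ± 0.11, adjusted p = 3.21e-13). Asz1, of the piRNA pathway, rose from 24.4 and 24.7 to 169 and 189 (2.86 ± 0.19), and Piwil4, a Piwi protein of male germ cells, from 64.2 and 79.4 to 288 and 246 (1.90 ± 0.13). Sycp2, of the synaptonemal complex, rose from 111 and 96.6 to 279 and 291 (1.45 ± 0.11). All of their knockout libraries lay above those of WT26, again a condition for naming them. Dnmt3l, the cofactor of de novo DNA methylation, fell from 775 and 860.0 to 191 and 183 (-2.12 ± 0.09), and Hormad1, of meiotic chromosome axes, from 539 and 559 to 264 and 268 (-1.04 ± 0.08). Hormad1 lies on chromosome 3 and gave -0.80 with size factors within each chromosome.

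In ES cells many germline promoters are known to be held silent by a variant Polycomb complex whose subunits Mga and Max bind the E-box CACGTG and whose subunit E2f6 binds sites such as TCCCGC. Promoter sequences of 300 bases from RefSeq (GRCm38.p6), running to shortly past the most upstream start that RefSeq gives, matched 44 of the 50 germline genes. In 39 of these the RefSeq start lay within 500 bases of the GENCODE gene start, and the exception among genes called higher was Stra8, whose RefSeq start lay 785 bases into the GENCODE gene. The letters CACGTG, on either strand, occurred in 15 of these 44 promoters (34.1%), in 10.1% of the 10219 matched promoters of tested protein-coding genes and in 7.23% of all 25748 autosomal promoters of the table. Of the germline genes called higher, 1 of 11 matched promoters held CACGTG and 2 held TCCCGC or its reverse complement GCGGGA. Of those not called higher, 14 of 33 held CACGTG and 15 held TCCCGC or its reverse complement. Over the protein-coding genes TCCCGC occurred in 36.8%, and over all autosomal promoters in 20.3%. A match of 1 motif can overlap a match of the other by no more than 1 letter. Stra8 is shown as the germline gene with the largest rise and neither motif, Tdrd9 as the called gene with the E-box, and Hormad1 as a gene that fell with both motifs. Capitals mark the matches. The windows are chr6:34920698-34920997 for Stra8, chr12:111971309-111971608 for Tdrd9 and chr3:95559427-95559726 for Hormad1, all on the + strand.
Stra8: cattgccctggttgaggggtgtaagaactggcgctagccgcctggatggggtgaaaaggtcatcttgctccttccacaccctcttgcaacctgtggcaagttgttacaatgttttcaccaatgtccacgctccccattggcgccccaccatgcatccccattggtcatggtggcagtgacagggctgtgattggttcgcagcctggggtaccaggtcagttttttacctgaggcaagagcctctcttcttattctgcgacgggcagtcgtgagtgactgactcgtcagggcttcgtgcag
Tdrd9: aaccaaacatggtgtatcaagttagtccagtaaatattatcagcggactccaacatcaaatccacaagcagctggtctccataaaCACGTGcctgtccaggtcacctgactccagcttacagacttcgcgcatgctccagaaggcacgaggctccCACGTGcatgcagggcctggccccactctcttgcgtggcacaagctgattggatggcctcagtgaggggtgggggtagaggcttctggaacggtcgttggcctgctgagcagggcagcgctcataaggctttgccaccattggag
Hormad1: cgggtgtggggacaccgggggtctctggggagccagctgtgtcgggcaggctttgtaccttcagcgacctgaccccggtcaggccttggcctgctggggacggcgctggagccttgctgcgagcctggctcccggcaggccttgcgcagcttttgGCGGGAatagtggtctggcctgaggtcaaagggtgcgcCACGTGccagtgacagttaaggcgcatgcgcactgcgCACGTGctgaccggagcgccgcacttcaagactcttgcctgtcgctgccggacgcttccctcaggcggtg
These matches describe letters in these windows and were not tested against the RNA.

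Signalling genes moved in opposite directions within a pathway. The Nodal antagonists Lefty1 (29.8 and 22.5 to 218 and 231, 3.08 ± 0.16) and Lefty2 (42.5 and 42.9 to 198 and 208, 2.25 ± 0.14), which Nodal itself induces, rose, and the Nodal relative Gdf3 fell (-0.53 ± 0.05). Id1, a target of BMP, fell from 173 and 213 to 59.1 and 61.4 (-1.67 ± 0.16), and Id3 from 78.7 and 89.1 to 37.1 and 25.3 (-1.42 ± 0.27). Id3 lies on chromosome 4, and in the MeRIP input it gave -0.61 and did not pass the edgeR test (adjusted p = 0.441). Of 40 FGF-ERK pathway genes 3 were called higher and 6 lower (7.5% and 15%, against 7.46% and 6.62% of all genes). Feedback inhibitors that ERK induces were among the genes called lower: Dusp6 went from 1490.3 and 1511 to 476 and 482 (-1.65 ± 0.07, adjusted p = 3.48e-12) and Spry2 from 626 and 662 to 273 and 265 (-1.26 ± 0.08). Dusp4, another ERK phosphatase, rose from 103 and 115 to 249 and 262 (1.23 ± 0.13). Immediate early genes split in the same way, with 4 called higher and 5 lower of 22. Fos (155 and 139 to 413 and 351, 1.38 ± 0.11) and Fosb (27.1 and 29.0 to 160.2 and 165, 2.53 ± 0.19) rose. Junb (533 and 629 to 182 and 145, -1.82 ± 0.12) and Btg2 (631 and 664 to 257 and 242, -1.37 ± 0.09) fell. In the MeRIP input Junb and Btg2 passed as lower by edgeR, but Fos (adjusted p = 0.317) and Fosb (adjusted p = 0.606) did not pass. Fosb overlapped there, with 9.7 and 135.1 in WT26 and 87.6 and 179.3 in Mettl14 KO.

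Of 27 LIF, Stat3 and Myc genes 11 fell and 1 rose by adjusted p. Myc went from 105 and 146 to 44.1 and 35.1 (-1.65 ± 0.20), the kinase gene Pim3 from 1543 and 1737 to 680.0 and 684 (-1.26 ± 0.07) and Socs3, the feedback inhibitor of LIF signalling, from 1127 and 1152 to 712 and 696 (-0.69 ± 0.07). Stat3 itself gave -0.08 ± 0.05 (adjusted p = 0.155), and Stat5b rose from 80.5 and 92.3 to 236 and 205 (1.36 ± 0.14). In the Wnt pathway, Notum, an extracellular inhibitor of Wnt proteins, fell from 786 and 818 to 348 and 402 (-1.10 ± 0.08), and the receptor Fzd2 rose from 47.0 and 54.8 to 116 and 145 (1.37 ± 0.17). Without Mettl14 KO replicate 1, Notum gave -0.99 and was no longer called.

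Interferon and double-stranded RNA sensing genes had 6 called higher and 10 lower of 45, with a median of 0.04. The shares were 13.3% and 22.2%, against 7.46% and 6.62% of all genes. Oas2, which makes the activator of RNase L, fell from 218 and 179 to 31.0 and 44.8 (-2.39 ± 0.19, adjusted p = 1.07e-08). Xaf1 fell from 362 and 323 to 79.1 and 90.6 (-2.01 ± 0.13), Tmem173, which encodes the adaptor STING, from 115 and 117 to 24.0 and 35.1 (-1.96 ± 0.21) and the membrane protein gene Ifitm1 from 248 and 271 to 87.1 and 101 (-1.46 ± 0.13). H2-K1, a class I histocompatibility gene, rose from 163 and 174 to 485 and 449 (1.47 ± 0.10). Mx1, an antiviral GTPase named after its values were seen, rose from 1.8 and 1.1 to 35.1 and 14.6 (3.96 ± 0.68). The family thus did not move as one.

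Lists of respiration, protein turnover and the cell cycle held more genes that fell than rose. Of 98 oxidative phosphorylation genes 58 fell and 10 rose by adjusted p (59.2% and 10.2%), with a median of -0.31. Proteasome subunits fell in 29 of 46 cases and rose in 5, with 0 called by edgeR or DESeq2 (1 at an unadjusted p) and a median of -0.27. DNA replication and mitosis genes fell in 32 of 52 and rose in 6 (median -0.20), cyclins, CDKs and their inhibitors fell in 22 of 41 and rose in 2 (median -0.32), and cholesterol synthesis genes fell in 19 of 30 and rose in 5 (median -0.23). Of 73 cytoplasmic ribosomal protein genes 39 fell and 7 rose (median -0.18). In the most abundant quintile of all genes, 44.4% were lower and 24.1% higher. Cox6b1, a subunit of cytochrome c oxidase, fell from 1685 and 1677 to 712 and 795 (-1.16 ± 0.07, adjusted p = 4.49e-10). Cdk6, a kinase of the G1 phase, fell from 1983 and 2021 to 582 and 639 (-1.71 ± 0.06), and Mcm2, of the replicative helicase, from 3736 and 3701 to 2453 and 2488 (-0.59 ± 0.05). Birc5, the gene of the mitotic protein survivin, rose from 598 and 592 to 1221 and 1241 (1.05 ± 0.06), and lies on chromosome 11, with 0.88 under size factors within each chromosome. Ttn, the gene of the muscle protein titin and the most abundant gene called lower, fell from 15898 and 16078 to 4518 and 4622 (-1.81 ± 0.05, adjusted p = 2.89e-14).

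Of 38 p53 pathway genes 26 fell and 2 rose by adjusted p (68.4% and 5.26%), with a median of -0.34. Sfn, a 14-3-3 protein, fell from 181 and 172 to 43.1 and 47.7 (-1.96 ± 0.15), the membrane protein gene Perp from 593 and 583 to 265 and 308 (-1.04 ± 0.09, and -0.93 without Mettl14 KO replicate 1) and the cell cycle inhibitor Cdkn1a from 321 and 319.9 to 245 and 254 (-0.36 ± 0.09). Trp53 gave -0.12 ± 0.07 (adjusted p = 0.131). Integrated stress response genes went the other way, with 15 of 29 higher and 3 lower and a median of 0.26. Chac1, which degrades glutathione, rose from 135 and 113 to 293 and 256 (1.14 ± 0.13), and Trib3 rose (0.45 ± 0.09), while the pathway's factor Atf4 gave -0.03 ± 0.05 (adjusted p = 0.652). Cth, an enzyme of cysteine synthesis counted in this list, fell from 1050 and 1003 to 334 and 353 (-1.58 ± 0.07). Cth lies on chromosome 3 and Sfn on chromosome 4.

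Among chromatin genes, Tet2, an enzyme that oxidizes 5-methylcytosine, fell from 10106 and 9439 to 3311 and 3424 (-1.54 ± 0.06, adjusted p = 9.75e-13), Kdm3a, an H3K9 demethylase, from 4400.4 and 4413 to 1841 and 1825 (-1.27 ± 0.05) and Kdm2b, which brings variant Polycomb complexes to CpG islands, from 1735 and 1791 to 858 and 835 (-1.06 ± 0.06). Corepressors of KRAB zinc finger proteins and H3K9 enzymes fell in 17 of 25 cases and rose in 3. The 363 tested Zfp genes had 9 called higher and 18 lower, shares of 2.48% and 4.96%, below those of all genes in both directions. Off chromosomes 3 and 4, 9 were called lower, and size factors within each chromosome gave 10 higher and 9 lower. Imprinted genes had 3 called higher and 3 lower of 45. This is 6.67% in each direction, near the 7.46% and 6.62% of all genes. Sgce rose from 38.0 and 26.8 to 132 and 142 (2.06 ± 0.18), and Grb10, an adaptor that restrains growth, fell from 4759 and 4967 to 2214 and 2337 (-1.10 ± 0.05).

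The most abundant RNAs called higher were made by RNA polymerase III. Rn7sk, which holds the elongation factor P-TEFb inactive, measured 65147 and 62012 in WT26 and 128580 and 127935 in Mettl14 KO (1.01 ± 0.09), but 0.99 when scaled by library totals or within each chromosome and 0.98 without WT26 replicate 2. Rpph1, the RNA of RNase P, rose from 47065 and 43304 to 103191 and 95195 (1.13 ± 0.09). Both have related copies in the genome, so their counts are uncertain. Terc, the telomerase RNA on chromosome 3, fell from 2355 and 3043 to 1268 and 1247 (-1.10 ± 0.17), with -0.86 under size factors within each chromosome and -0.91 without WT26 replicate 2. Antisense transcripts were called lower in 20% of 345 cases and higher in 6.09%, and long intergenic RNAs lower in 18.2% and higher in 12.4% of 418. Their median counts were low, at 18.7 and 26.1. In the least abundant quintile of all genes 12.5% were called lower and 16.5% higher. Annotated regions of unproved coding status, the class TEC, were called higher in 11.3% and lower in 5.42% of 812. Whether the counting used strand is not given in the sources used here, so antisense genes and their partners cannot be told apart by these counts. The same holds for named genes with overlapping exons, among them Gbx2, Tdh, Lin28a, Foxd3, Fst, Pdgfra, Cubn, Dnmt3l, Piwil4, Kcnk1, Kcnma1, Syt7, Abca3, Abcb1a, Slc13a5, Col4a2, Tln1, Junb, Adrb3, Notum, Tet2, Kdm2b, Cdk6, Ttn, Actg1 and Rpph1.

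The changes also depended on chromosome. Among genes averaging 50 or more normalized counts, the median log2 fold change was -0.31 over 580 genes of chromosome 3, -0.35 over 760 of chromosome 4 and -0.20 over 294 of chromosome 18. On chromosomes 3 and 4, 77.9% and 78.7% of these genes had values below 0. The medians of the other autosomes lay between -0.10 on chromosome 7 and 0.15 on chromosome 11. In windows of 10 Mb with at least 20 genes, all 22 windows of chromosomes 3 and 4 had medians below 0, and of the 24 windows under -0.2 in the genome 22 lay on chromosomes 3, 4 and 18. Chromosome 11 differed along its length, with medians of 0.43 in its first 10 Mb and 0.42 to 0.49 in the windows from 100 Mb to its end, and values between -0.18 and 0.13 from 20 to 100 Mb. The number of chromosome copies was not measured here, and its part in these shifts was not tested. Leaving out chromosomes 3 and 4 kept the medians of the channel (0.50), synaptic (0.39), germline (0.50), naive (-0.54), p53 (-0.32) and oxidative phosphorylation (-0.26) lists on their sides of 0.

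**Figure D4:**
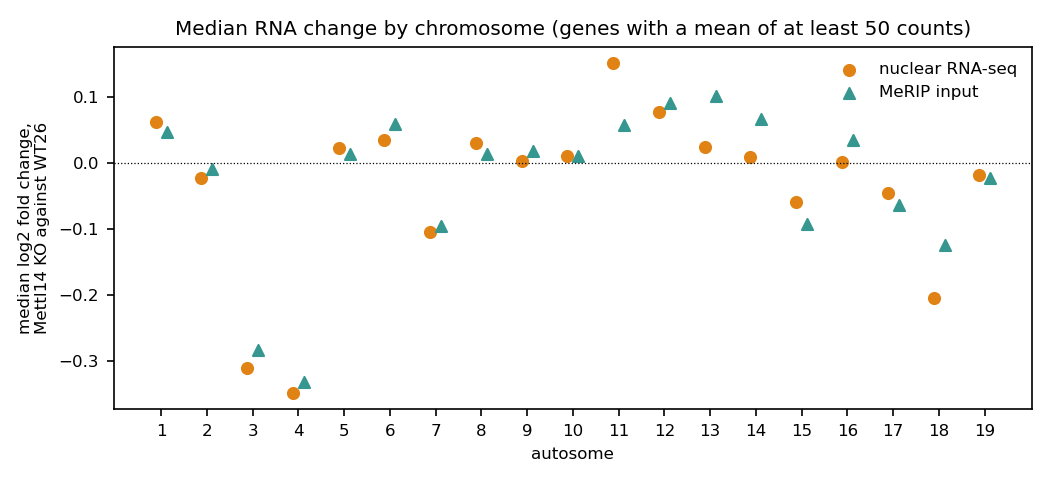
Median log2 fold change of Mettl14 KO against WT26 for each autosome, over genes averaging 50 or more normalized counts, in nuclear RNA-seq (circles) and in the MeRIP input libraries (triangles). Chromosomes 3 and 4 lie at -0.31 and -0.35 in RNA-seq and at -0.28 and -0.33 in the input.

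The change was set beside m6A in WT26, measured as the log2 ratio of normalized counts in the m6A immunoprecipitate over the input (MeRIP) for 11434 genes. From the quintile of genes with the lowest to that with the highest enrichment, the median RNA change went from 0.05 to -0.14, the share called lower from 2.75% to 8.18% and the share called higher from 3.76% to 1.79%. The median counts of these quintiles were 410.1 and 279, so abundance differed between them as well. In Mettl3 KO against RBC the same quintiles had median RNA changes of 0.01 and 0.01. Naive and general pluripotency genes had median enrichments of 0.89 and 0.72, against 0.07 over all genes measured, and germline genes -0.53. These are descriptions of genes that share libraries, with no test.

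The MeRIP input libraries are a second set of nuclear RNA libraries of the same lines, and whether they share RNA preparations with the RNA-seq libraries is not stated. They were shallower and more variable, with 5739748 to 13530715 counts on genes in the 4 libraries compared. Of 18441 autosomal genes tested in the input, 504 were higher in Mettl14 KO (2.73%) and 889 lower (4.82%) by adjusted p. Of the 1030 genes called higher in RNA-seq and tested in the input, 971 were higher there too (94.3%), with 284 passing the test in that direction and 2 in the other. Of 954 genes called lower, 903 were lower in the input (94.7%), with 421 passing and 0 passing in the other direction by edgeR or DESeq2 (5 at an unadjusted p). Across 15301 genes the log2 fold changes had a Pearson r of 0.79 and a Spearman rho of 0.77, a description across genes, which are not independent replicates. Channel genes called in RNA-seq had the same sign in the input in 30 of 34 cases, synaptic genes in 14 of 14, and germline genes in 12 of 13. These signs cover called genes only. Over all members tested in the input, the medians were 0.18 for channel, 0.30 for synaptic and 0.04 for germline genes, against 0.50, 0.35 and 0.48 in RNA-seq. There 11 channel genes passed as higher and 3 as lower, 5 and 1 synaptic genes, and 5 and 4 germline genes. Endoderm genes had the same sign in 12 of 12, but their rises were smaller, with 0.50 (adjusted p = 0.52) for Pdgfra and 1.08 (adjusted p = 0.26) for Cubn, and 0 genes of that list passed as higher in the input by edgeR or DESeq2 (1 at an unadjusted p). Rps16, called higher in RNA-seq (204 and 450 to 882 and 1196), gave -0.33 in the input (adjusted p = 0.69).

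**Figure D5:**
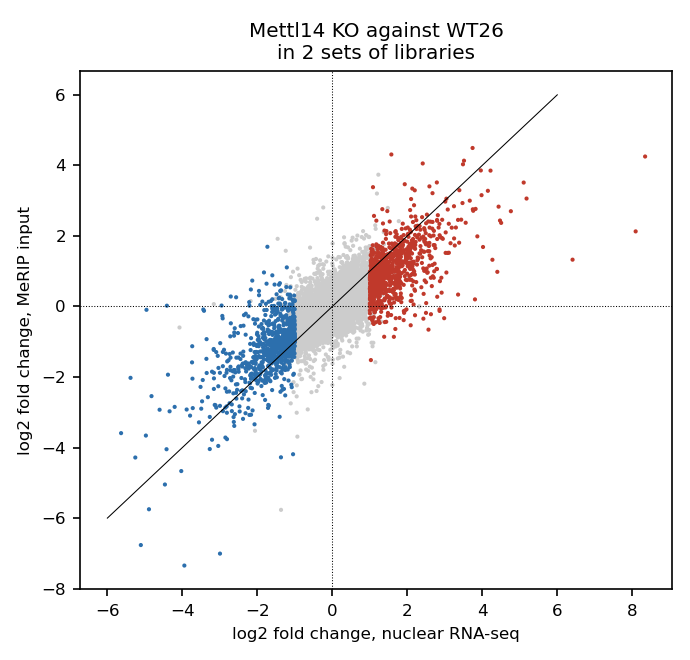
Log2 fold changes of Mettl14 KO against WT26 in nuclear RNA-seq (horizontal axis) and in MeRIP input (vertical axis) for 15301 autosomal genes, with genes called higher in RNA-seq in red, lower in blue and others in grey, and a line of equality. Most called genes keep their sign, 971 of 1030 in the higher and 903 of 954 in the lower direction.

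To ask which changes were shared with the loss of the catalytic subunit, the change in Mettl14 KO against WT26 was compared with that in Mettl3 KO against RBC, which use separate libraries. The RBC replicates stood farther apart than those of the other groups (chi-square per degree of freedom 35.6, against 2.76 in WT26). The difference passed the test for 7011 of the 16317 genes (43.0%). Germline genes differed in 37 of 50 cases, of which 33 were higher in Mettl14 KO, and their median was -0.67 in Mettl3 KO against 0.48 in Mettl14 KO. Endoderm genes had medians of -0.87 in Mettl3 KO and 0.43 in Mettl14 KO, with 12 of 22 genes differing in the higher direction and 3 in the lower. For cytoplasmic ribosomal proteins 64 of 73 genes differed, each with the lower value in Mettl3 KO, where the median was -0.79. In channel genes, 23 of 100 differed in the higher and 18 in the lower direction, close to the share over all genes. Dusp6 (-1.65 in Mettl14 KO and -1.69 in Mettl3 KO), Lefty1 (3.08 and 2.94), Vim (-1.30 and -1.36) and Lmna (-1.78 and -1.81) gave similar values, and their differences did not pass the test (adjusted p = 0.73, 0.63, 0.61 and 0.90). Kcnk1 (0.33 in Mettl3 KO), Cgn (-0.12), Cdk6 (-0.17) and Ttn (-0.30) differed, with adjusted p of 1e-07, 1.4e-08, 1.7e-10 and 3.85e-11. The knockouts also differ in clone and parental line, and these cannot be told apart from the subunit lost.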

How the data were processed

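RNA-seq and MeRIP-seq of nuclear RNA covered 4 ES cell lines, Mettl14 KO with its parent WT26 and Mettl3 KO with RBC, with 2 biological replicates per group. The values are raw counts of reads per gene that the authors deposited without normalization; per the labels, the tools were FastQC, cutadapt 1.8.1, STAR 2.6.0c and DESeq2 1.26.0 on GRCm38, and the counting tool is not given in the sources used here. Every column was assigned by its label (0 left over).

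Counts were tested in R 4.3.3 with the quasi-likelihood test of edgeR 4.0.16, using DESeq2 size factors and edgeR's filter on low counts, on all 8 RNA-seq libraries in 4 groups, which share 1 estimate of spread, with Benjamini-Hochberg adjustment over all 17021 genes tested. MeRIP inputs were fitted likewise (19214 genes). Coordinates are GENCODE M21 on GRCm38, matched for 47310 of 47937 identifiers. In simulated data 100% of 4-fold and 98% of 2-fold changes were recovered for RNA-seq, and 99% and 66% for the input. The changed genes were drawn only from genes above a limit on mean counts. These rates therefore do not cover genes of low count, such as many channel genes, for which recovery was not tested. Totals set counting error only. Replicates differed by more than sampling noise (chi-square per degree of freedom 2.76 in WT26, 3.24 in Mettl14 KO, 5.75 in Mettl3 KO and 35.6 in RBC). The labels call them biological replicates and do not say whether they are separate cultures, so p-values measure the spread between these samples.

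Genes and lists were chosen with earlier results of these data known. Up to 4 called members of a list in its commoner direction and up to 2 in the other were named, by size of change. They had to average 50 or more normalized counts, with no overlap between groups. Also named were the extremes or defining members of lists, cell type markers, Mettl14, Mettl3 and the 3 most abundant called genes in each direction. Others are said to be named after their values were seen or stand as defining members of their pathway. Promoters were matched by symbol, taking the most upstream by strand where a symbol had several. Alternatives were TMM, library totals, size factors within each chromosome, other count filters, DESeq2 1.42.0, the 4 libraries alone, a replicate block and leaving out each replicate. Genes outside the autosomes and repeats were not analysed here. Some named genes are not reported here. Figures were drawn with matplotlib 3.10.9 in Python 3.11.15.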

Additional observations from a re-analysis of the deposited data

Results flagged for a closer look

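Of the named genes, 9 were called in both knockouts in opposite directions. For each, the difference between Mettl14 KO against WT26 and Mettl3 KO against RBC passed the test by edgeR. Opposite calls on the same counts already make this difference large, so passing the test is no added evidence. The differences (Mettl14 KO change minus Mettl3 KO change, log2 scale) were 5.90 for the ABC transporter Abca16, 5.91 for Asz1, 3.56 for Cubn, 2.42 for the receptor Gprc5c, 3.17 for Nlrp14, 6.59 for Nlrp4c, 3.74 for the solute carrier Slc5a4b and 2.52 for Sycp2, all higher in Mettl14 KO and lower in Mettl3 KO. Tmem173 was lower in Mettl14 KO (-1.96) and higher in Mettl3 KO (1.14), a difference of -3.11. For Asz1 the changes were 2.86 and -3.05, and for Nlrp4c 3.27 and -3.32. Their adjusted p ranged from 6.92e-11 for Asz1 to 5.87e-07 for Tmem173. The knockouts are single clones of separate parental lines, which cannot be told apart from the subunit lost. Groups of 2 are too small for a search for outlying samples.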

How the results depend on the processing

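Calls depended most on the filter on low counts. With at least 10 counts in every library, 13307 autosomal genes were tested and 618 were called higher and 619 lower, against 1218 and 1080, since fewer genes of low count were tested. DESeq2 called 924 and 844. Leaving out 1 RNA-seq library gave 1064 to 1106 called higher and 960 to 996 lower, and 3158 to 3294 higher and 3635 to 3785 lower by adjusted p alone. In the MeRIP input, 309 genes were called higher and 426 lower, and leaving out 1 library gave 29 to 286 and 119 to 399. The lowest counts came without WT26 replicate 1 (29 and 119) and without Mettl14 KO replicate 1 (52 and 119), the deeper library of each group, so input calls rest on them. Same-numbered RNA-seq replicates of WT26 and Mettl14 KO did not deviate together (correlation -0.07 over 11879 genes). This correlation was not computed for the input libraries. With a replicate block 1214 and 1075 genes were called in RNA-seq, 433 and 539 in the input, and 7130 genes differed from the Mettl3 KO change, an alternative chosen after seeing the data. No named gene reversed its direction under any alternative run. With size factors within each chromosome 24 of 229 named genes lost their call or test and 1 gained it, mostly on chromosomes 3, 4 and 11, while TMM changed 2 and the block none. List medians changed sign for 11 of 84 lists with at least 10 counts in every library, and for 7 with size factors within each chromosome. With 2 replicates per group, changes of genes with few counts are the least certain.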
